A study of Mus musculus with 17 samples.

Results

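Cav1, Cav2, Ehd2 and Plvap encode proteins of caveolae and of the diaphragms that span caveolae and endothelial fenestrae. They were chosen by name as 4 of the 19937 genes measured on 17 arrays of cells from the aorta-gonad-mesonephros (AGM) region of E11.5 mouse embryos, a region where haematopoietic stem cells first appear in the embryo. For each gene the brightest probe set that carries its symbol alone was taken. Each of the 4 genes had 1 such probe set.

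The study asked how the Notch ligands Jag1 and Dll4 act on AGM cells that do or do not carry the receptor Kit on their surface. All cells were sorted as CD31+CD45− (before culture also as Ter119−) from pooled embryos whose genotype and strain the labels do not give. Kit− and Kit+ cells (3 arrays each) were sorted by Kit and taken fresh, at 0 h. For the other groups the sorted CD31+ cells spent 2 h on OP9 stromal cells carrying Jag1 or Dll4, in a medium with serum, IL3, SCF, IL6, IGF-1, FGF, VEGF, erythropoietin, monothioglycerol, heparin and pituitary extract, and were then sorted by Kit. This gave Kit−J (2 arrays) and Kit+J (3 arrays) on OP9-Jag1, and Kit−D and Kit+D (3 arrays each) on OP9-Dll4. OP9 without a ligand was not among the groups used here, so ligand and stroma line cannot be told apart. The fresh arrays came from an earlier series, so the effect of culture is confounded with the array set and the 2 cannot be told apart.

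The labels and the marker genes of some arrays stand apart. A description line names the opposite Kit population from the title on both Kit−J arrays and on the replicate 3 arrays of Kit−D and Kit+D. The titles were followed here. The log2 signal of Kit itself was 8.13 to 8.29 on Kit− arrays and 9.44 to 9.55 on Kit+ arrays. On the Kit−J arrays it was 9.08 and 8.50, and the first of these lies inside the Kit+J range of 9.02 to 9.93. The mean of 12 endothelial markers, relative to Kit−, was −2.08 and −1.78 for the Kit−J arrays, close to the range of fresh Kit+ cells (−2.69 to −2.34). It was 0.155 to 0.584 for Kit−D, −2.75 to −2.53 for Kit+J and −2.55 to −1.60 for Kit+D. Of these 12 markers 10 were called lower in Kit−J than in Kit−, where 1.89% of all genes were. The mean of 9 germ cell markers, on the same scale, was 0.997 to 1.30 for Kit+ and 0.721 and 0.830 for Kit−J. It was −2.53 to −0.788 for Kit−D, 1.08 to 1.5 for Kit+J and −1.87 to 1.90 for Kit+D. Means of haematopoietic markers ran from −1.61 to 0.0800 within Kit−D and from −1.98 to 0.944 within Kit+D. Of the endothelial markers Pecam1, which encodes the CD31 of the sort, stayed at 7.60 or above on every array. Ptprc, which encodes the CD45 that the sort selects against, read 8.12 to 9.20 on the fresh arrays and 8.12 and 8.86 on the Kit−J arrays. It read 7.38 to 8.61 in Kit+J, but 8.59, 4.46 and 4.16 on the Kit−D arrays and 8.99, 5.54 and 4.64 on the Kit+D arrays, so it was low on 2 arrays of each OP9-Dll4 group. In bulk RNA, fewer cells of a type and less RNA per cell cannot be told apart.

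Caveolae are flask-shaped pits of the plasma membrane that are abundant in endothelium, where they carry cargo across the cell and buffer membrane tension. Caveolins insert into the inner leaflet and, with the cavins, form the coat. Caveolin-2 depends on caveolin-1 to reach the plasma membrane, the ATPase Ehd2 holds the neck of the pit, and Plvap builds the thin diaphragm across caveolae and fenestrae.

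Cav1, which encodes the main structural protein of the caveolar coat, had log2 signals of 8.09, 9.08 and 9.0 on the fresh Kit− arrays and of 4.99, 5.12 and 5.07 on the fresh Kit+ arrays. It was 9.47, 9.50 and 9.78 in Kit−D, against 6.34 and 6.80 in Kit−J. Kit−D arrays were thus the highest of all, and both Kit−J arrays lay below every Kit− and Kit−D array. In Kit+J the signals were 5.71, 7.11 and 4.86, and in Kit+D they were 5.19, 6.92 and 7.33. The Kit+ cells were uniform when fresh (SD 0.0686, n = 3) and spread widely after culture (SD 1.14 in Kit+J and 1.13 in Kit+D, n = 3 each). The fresh Kit+ signals lie under the median of every array (5.22 to 5.38), so Cav1 was dim there. So do those of Kit+J replicate 3 and Kit+D replicate 1. By group mean, Kit−D (9.58) was followed by Kit− at 8.72, Kit−J at 6.57, Kit+D at 6.48, Kit+J at 5.89 and Kit+ at 5.06. No neighbours overlapped among the first 3, and each neighbouring pair from Kit−J downward overlapped.

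Cav2, which encodes the second coat caveolin of endothelial cells, had log2 signals of 5.92, 6.29 and 5.95 in Kit− and of 4.33, 4.51 and 4.11 in Kit+. Kit−D cells gave 6.19, 6.30 and 7.26, where Kit−J cells gave 4.45 and 4.49. The other cultured arrays read 4.40, 5.01 and 4.16 in Kit+J and 4.78, 4.11 and 4.49 in Kit+D. The pattern was of 2 levels, with Kit− and Kit−D overlapping above 5.9 and the remaining 4 groups overlapping at or below 5.01. The lower level lies under the median of every array (5.22 to 5.38), so Cav2 was dim there.

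Ehd2, the ATPase of the caveolar neck, had log2 signals of 7.27, 6.20 and 6.63 in Kit−, of 5.16 and 5.31 in Kit−J and of 6.60, 6.60 and 7.46 in Kit−D. In Kit+ cells they were 4.56, 5.40 and 4.80 when fresh, 4.95, 5.84 and 4.93 in Kit+J and 5.76, 5.71 and 5.89 in Kit+D. Kit− and Kit−D overlapped and no other group reached them. The Kit+ and Kit−J signals, and those of Kit+J replicates 1 and 3, lay near or under the array medians (5.22 to 5.38). Ehd2 was therefore dim there. Kit+D lay above all fresh Kit+ arrays, and overlapped Kit+J through the second Kit+J array.

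Plvap, the diaphragm protein, had log2 signals of 8.26, 7.69 and 7.94 in Kit− and of 6.36, 6.18 and 6.48 in Kit+. On OP9-Dll4 they were 7.57, 7.76 and 8.52 for Kit−D and 6.20, 6.83 and 6.83 for Kit+D. On OP9-Jag1 the Kit−J arrays read 7.15 and 7.01, while Kit+J read 6.08, 6.51 and 6.24. Unlike the other members, Plvap had a level of its own in Kit−J, below every Kit− and Kit−D array and above every Kit+, Kit+J and Kit+D array. Kit− and Kit−D means were 7.96 and 7.95, and the 3 Kit+ groups overlapped.

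**Figure D1:**
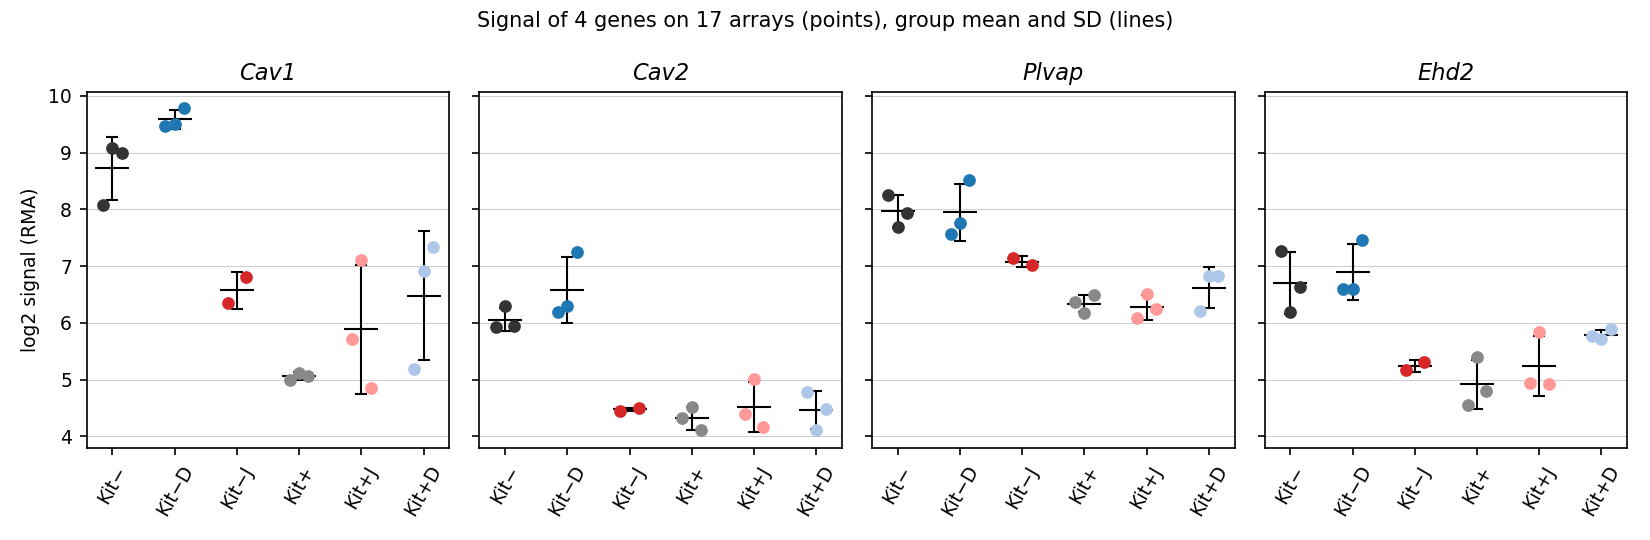
Log2 signal (RMA) of Cav1, Cav2, Plvap and Ehd2 on the 17 arrays, by group on the horizontal axis. Points are arrays and lines give the group mean with its SD. Kit− and Kit−D are the 2 highest groups for each gene, and Kit−J lies below both.

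Across the 17 arrays the SD of Cav1 was 1.78, larger than that of 99.8% of genes, and its signals spanned 4.93 log2 units. The SDs were 0.988 for Cav2, 0.863 for Ehd2 and 0.786 for Plvap, at the 97.4th, 96.0th and 94.8th percentiles. Over the same arrays Pearson's r between pairs of members was 0.868 to 0.895. After each group's mean was removed it was 0.258 (Cav1 and Ehd2) to 0.616 (Plvap and Ehd2). These values describe arrays that share groups, pools and array sets, and they carry no test.

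Fresh Kit+ cells had less of all 4 transcripts than fresh Kit− cells. All 4 were called lower at an adjusted p under 0.05 (limma, Benjamini-Hochberg over 19937 genes), where 2.67% of all genes were called lower. Cav1 was 12.6-fold lower (log2 fold change −3.66, SE 0.53, adjusted p = 0.000671). The folds were 3.33 for Cav2 (−1.74, SE 0.28, adjusted p = 0.00146), 3.44 for Ehd2 (−1.78, SE 0.32, adjusted p = 0.00395) and 3.08 for Plvap (−1.62, SE 0.24, adjusted p = 0.000894). For each of the 4 genes every Kit+ array lay below every Kit− array, as it did for 10.5% of all genes. The lists of markers moved in the same comparison. Of 12 endothelial markers 10 were lower (median −2.06), and of 14 stromal markers 4 were lower (median −1.25), with stromal means of −1.31 to −1.18 in Kit+ relative to Kit−. Erythroid (2 of 6 lower, median −1.21), megakaryocytic (1 of 4 lower, −1.60) and myeloid markers (1 of 10 lower, −0.86) were also lower by median. Of 9 germ cell markers none was called, and their median was 1.12. The part of these lists in the caveolar difference was not tested.

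The same contrast was then made on each stroma. On OP9-Dll4 all 4 genes were lower in Kit+D than in Kit−D (limma), beside 6.62% of all genes. Cav1 was 8.59-fold lower (−3.10, adjusted p = 0.00155), Cav2 4.35-fold (−2.12, adjusted p = 0.000204), Plvap 2.51-fold (−1.33, adjusted p = 0.00247) and Ehd2 2.15-fold (−1.10, adjusted p = 0.0334). The replicate numbers were taken to pair the OP9-Dll4 arrays. With the replicate block, the call for Ehd2 was lost (adjusted p = 0.0505, limma), and with the block on OP9-Dll4 arrays alone it was kept (0.0393). It was also lost with only the groups compared (0.0507) and with housekeeping scaling (0.055). The same held without Kit−D replicate 3 (0.151) and without any single Kit+D array (0.0531 to 0.0977). Ehd2 was called in 12 of 20 alternative settings, with a lowest adjusted p of 0.0259. Without 3 OP9-Dll4 arrays (replicate 3 of Kit−D, replicates 1 and 3 of Kit+D), Plvap was at −0.84 and Ehd2 at −0.89, both smaller in size. These arrays were picked after seeing the data, and 1 Kit+D array is then left. Kit−D replicate 1 was kept. Its stromal (−0.388) and myeloid means (−0.0268) lay apart from those of replicates 2 and 3 (0.550 and 0.551, −2.18 and −2.42). All 12 endothelial markers and 4 of 14 stromal markers were also called lower in Kit+D (medians −1.91 and −0.89). Germ cell markers went the other way, with 5 of 9 called higher (median 2.36), where 1296 of 19937 genes were called higher. The part of these lists was not tested.

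On OP9-Jag1 no member was called between Kit+J and Kit−J, and 0.0903% of all genes were. Cav2 and Ehd2 means differed by 0.05 and 0.00 log2 units, with 95% intervals of −0.61 to 0.71 and −0.76 to 0.76. These intervals leave out the Cav2 and Ehd2 differences fitted between the fresh groups, but do not count the error of those differences. The test of that change is the difference of the OP9-Jag1 culture effect given below. It was called for neither Cav2 (adjusted p = 0.0773, limma) nor Ehd2 (adjusted p = 0.146, limma). Cav1 was at −0.68 (interval −1.94 to 0.58). Plvap stood apart from these, at −0.80 with every Kit+J array below both Kit−J arrays, but was not called (unadjusted p = 0.00957, adjusted p = 0.283, limma).

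Kit− cells recovered from OP9-Jag1 had lower signals of all 4 genes than fresh Kit− cells, and 2 of the differences were called. For all 4 genes both Kit−J arrays lay below every Kit− array, where 12.8% of all genes did. Of the 4, 2 were called lower, beside 1.89% of all genes (limma). Cav2 was 2.99-fold lower (−1.58, SE 0.31, adjusted p = 0.0124) and Ehd2 2.76-fold lower (−1.47, SE 0.36, adjusted p = 0.0456). Cav1 had the largest fitted difference of the 4, 4.43-fold, and was not called (−2.15, SE 0.59, adjusted p = 0.0877). Plvap was 1.85-fold lower and not called (−0.88, SE 0.27, adjusted p = 0.136). With only the groups compared, Cav1 was called (adjusted p = 0.0344, limma) and Ehd2 was not (0.085). Which 2 genes were called thus depends on which arrays share the variance. The calls also depend on single arrays. Without Kit−J replicate 1, the array whose Kit signal lay inside the Kit+J range, none of the 4 was called, and Cav2 was at −1.56 (adjusted p = 0.131). With any of the 5 arrays left out 0 or 1 member was called. Over all alternatives the adjusted p was 0.00278 to 0.131 for Cav2 and 0.0319 to 0.309 for Ehd2. Without the 3 OP9-Dll4 arrays named above, which take part here only through the shared variance, all 4 were called. With the replicate block 1 was called, Cav2. The stromal marker mean was −1.05 and −0.68 on the Kit−J arrays. Of 6 erythroid markers 2 were lower (median −1.32), and of 9 germ cell markers none was called (median 0.90). The part of these lists was not tested.

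Kit− cells recovered from OP9-Dll4 showed no called change from fresh Kit− cells in any member, and 0.171% of all genes were. The log2 fold changes were 0.86 for Cav1 (95% interval −0.27 to 1.99, adjusted p = 0.597), 0.53 for Cav2 (−0.06 to 1.12), 0.19 for Ehd2 (−0.49 to 0.87) and −0.01 for Plvap (−0.53 to 0.50). The Cav1 arrays of Kit−D lay above all 3 Kit− arrays. The intervals for Plvap and Ehd2 leave out a change of 1 log2 unit in either direction, and those for the caveolins do not.

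Between the stromas, Kit− cells differed in 3 of the 4 genes. Cav1, Cav2 and Ehd2 were called lower on OP9-Jag1 than on OP9-Dll4, beside 6.07% of all genes (limma). The folds were 8.06 for Cav1 (−3.01, adjusted p = 0.0061), 4.31 for Cav2 (−2.11, adjusted p = 0.000736) and 3.15 for Ehd2 (−1.66, adjusted p = 0.0106). Plvap was 1.83-fold lower with no overlap of arrays, and just missed the call (−0.87, adjusted p = 0.0564). It passed without Kit−D replicate 1 (0.0384), within a range of 0.0384 to 0.224. Without Kit−J replicate 1 only Cav2 was called. Without the 3 OP9-Dll4 arrays named above the call for Ehd2 was lost (−1.37, adjusted p = 0.0534, in a range of 0.00643 to 0.108). Of the markers, 10 of 12 endothelial and 3 of 14 stromal genes were lower on OP9-Jag1 as well (medians −2.06 and −1.07), as were 3 of 6 erythroid genes (median −1.49). Germ cell markers went the other way, with 6 of 9 called higher (median 2.85), where 658 of 19937 genes were called higher. Of 10 haematopoietic markers 1 was called higher (median 1.26). The part of these lists was not tested. This comparison shares its Kit−J arrays with the one against fresh Kit− cells, so they are not separate evidence.

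Kit+ cells showed no called change in any member after culture. In Kit+J against Kit+, where 0.0201% of all genes were called, the log2 fold changes were 0.83 for Cav1, 0.20 for Cav2, 0.32 for Ehd2 and −0.07 for Plvap. In Kit+D against Kit+, where 1.42% were called, Cav1 was at 1.42 (95% interval 0.29 to 2.55, unadjusted p = 0.0171, adjusted p = 0.188, limma) and Ehd2 at 0.87 (0.19 to 1.55, unadjusted p = 0.0158, adjusted p = 0.182). For both genes each Kit+D array lay above each Kit+ array. Cav1 was called without Kit+D replicate 1 (2.06, adjusted p = 0.0387) and with array weights (adjusted p = 0.0376), at the low end of a range that reached 0.397. Kit+D replicate 1 had the lowest Cav1 signal of its group, 5.19, and the lowest mean of endothelial markers, −2.55, while the other Kit+D arrays had −1.60 and −1.62. Their stromal means were −0.923 and −0.0567, against −1.31 on replicate 1. Between Kit+J and Kit+D no member was called, beside 2.25% of all genes, and the log2 fold changes ran from −0.59 for Cav1 to 0.06 for Cav2.

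**Figure D2:**
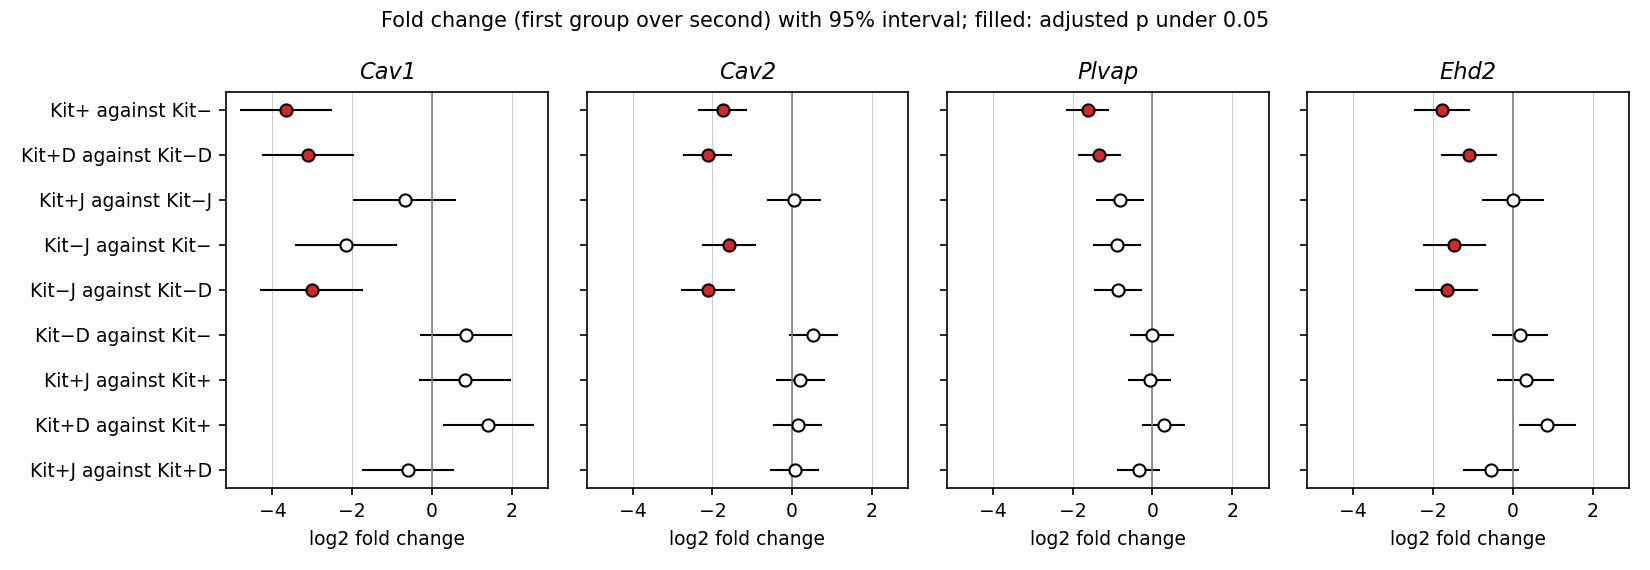
Log2 fold change of the first group over the second (horizontal axis) with its 95% interval, for Cav1, Cav2, Plvap and Ehd2 in 9 comparisons. Filled points have an adjusted p under 0.05. All filled points lie to the left of 0 and fall in the comparisons of Kit+ with Kit−, of Kit+D with its Kit− counterpart and of Kit−J with fresh or OP9-Dll4 cultured Kit− cells.

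The difference of the Jag1-against-Dll4 contrast between Kit− and Kit+ cells was itself tested. It was called for Cav2 alone of the 4, beside 1.98% of all genes, at −2.17 log2 units (SE 0.41, adjusted p = 0.0191, limma). It was −2.42 for Cav1 (adjusted p = 0.139), −1.11 for Ehd2 (adjusted p = 0.259) and −0.52 for Plvap (adjusted p = 0.504). The Cav2 call was lost without Kit−J replicate 1 (−2.15, adjusted p = 0.0822). The difference in the effect of OP9-Jag1 culture was negative for all 4 genes, with none called, beside 0.582% of all genes. It was −2.98 for Cav1, −1.78 for Cav2 (adjusted p = 0.0773), −1.79 for Ehd2 and −0.82 for Plvap. For OP9-Dll4 culture no member was called, and 0% of all genes were (limma, with 1790 of 19937 at an unadjusted p under 0.05).

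Cav2 and Cav1 lie side by side on chromosome 6 in the same orientation, with 0 protein coding genes between them in the RefSeq annotation. The 3 genes on either side of the pair were measured as well. Mdfic, Tfec, Tes, Met, Capza2 and St7 were not called where Kit+ or Kit−J was set against Kit−, nor between Kit−J and Kit−D. Tes was at 0.17, 0.48 and 0.17 in these comparisons, and Met, the receptor for hepatocyte growth factor on the other flank, was at −0.52, −0.63 and −0.92. In Kit+D against Kit−D Mdfic was called lower (−0.52, adjusted p = 0.0497, limma).

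Of the 4 members, 3 have an entry in the RefSeq promoter table for GRCm38.p6. Since these genes were called together in Kit+ against Kit−, the 250 bases before each start are shown 5′ to 3′ on the strand of the gene. Capitals mark TGGGAA, the core bound by RBPJ, the DNA-binding factor of the Notch pathway, GGAAG, the core of many ETS sites, and GGGCGG, the GC box, each searched on both strands. The first 2 motifs share the letters GGAA and can overlap. Cav1 lies at chr6:17306085-17306334 on the plus strand (the first of 2 starts), Cav2 at chr6:17280935-17281184 on the plus strand and Ehd2 at chr7:15967536-15967785 on the minus strand.
Cav1: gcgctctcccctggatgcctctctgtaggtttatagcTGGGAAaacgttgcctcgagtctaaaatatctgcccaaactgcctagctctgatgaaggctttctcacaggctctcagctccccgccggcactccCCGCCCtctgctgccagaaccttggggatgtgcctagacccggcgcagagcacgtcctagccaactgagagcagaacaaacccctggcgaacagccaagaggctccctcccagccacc
Cav2: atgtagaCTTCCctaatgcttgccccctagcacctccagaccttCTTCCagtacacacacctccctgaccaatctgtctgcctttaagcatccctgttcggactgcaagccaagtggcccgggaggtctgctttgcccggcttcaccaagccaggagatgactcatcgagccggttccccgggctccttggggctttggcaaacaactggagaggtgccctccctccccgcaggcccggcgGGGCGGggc
Ehd2: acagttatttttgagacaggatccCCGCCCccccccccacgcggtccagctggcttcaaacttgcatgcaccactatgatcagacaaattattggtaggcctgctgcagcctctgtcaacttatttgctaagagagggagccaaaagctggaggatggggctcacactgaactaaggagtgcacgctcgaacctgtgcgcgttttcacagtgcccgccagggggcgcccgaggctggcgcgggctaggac
The Cav1 window held 1 TGGGAA on the strand of the gene, beginning 213 bases before the start, and 1 GC box on the opposite strand. The Cav2 window held 2 GGAAG cores on the opposite strand and 1 GC box that begins 9 bases before the start. The Ehd2 window held 1 GC box on the opposite strand. Of the 32851 promoter windows in the table, 21.6% held TGGGAA, 64.1% held GGAAG and 32.7% held GGGCGG. These are matches of letters and were not tested for binding.

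Other caveolar genes were looked at as well. Of 11 other coat and neck genes, 1 was called in Kit+ against Kit−, as lower, where 2.67% of all genes were called lower. The list's median log2 fold change was −0.12 against 0.06 over all genes. The called gene was Cavin1, the cavin without which caveolae do not form (−1.05, adjusted p = 0.0158, limma). Cavin1 read 6.66, 6.83 and 6.94 in Kit−, 5.60, 5.65 and 6.02 in Kit+, and 5.93 and 6.17 on the Kit−J arrays, so both Kit+ and Kit−J lay below Kit−. In Kit−J against Kit− none of the 11 was called (median −0.09 against 0.09 over all genes), with Cavin1 at −0.76. Of all genes 1.89% were called lower there.

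Most calls among these genes involved Kit−D. Against Kit−D, Kit−J had lower Cavin2, a cavin of endothelial caveolae (−2.19, adjusted p = 0.00139), and lower Cavin1 (−1.26, adjusted p = 0.0068, limma). In this comparison 6.07% of all genes were called lower. Cavin2 read 6.88, 6.46 and 6.84 for Kit−D but 4.69 and 4.39 for Kit−J, with the fresh Kit− arrays between them at 5.44, 5.28 and 5.94. Pacsin1, a membrane-bending protein best known from neurons, went the other way. It was lower in Kit−D than in Kit− (−0.96, adjusted p = 0.033) and exceeded the Kit−D level in Kit−J (0.99, adjusted p = 0.00257). Kit+D against Kit−D gave 2 lower (Cavin2 −1.99, Cavin1 −0.77) and 2 higher (Pacsin1 0.96, and Ehd1, an ATPase of recycling endosomes, 1.03). Of all genes 6.62% were called lower there, and 1296 of 19937 were called higher. The muscle caveolin Cav3 was between −0.14 and −0.03 in these comparisons and was not called.

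**Figure D3:**
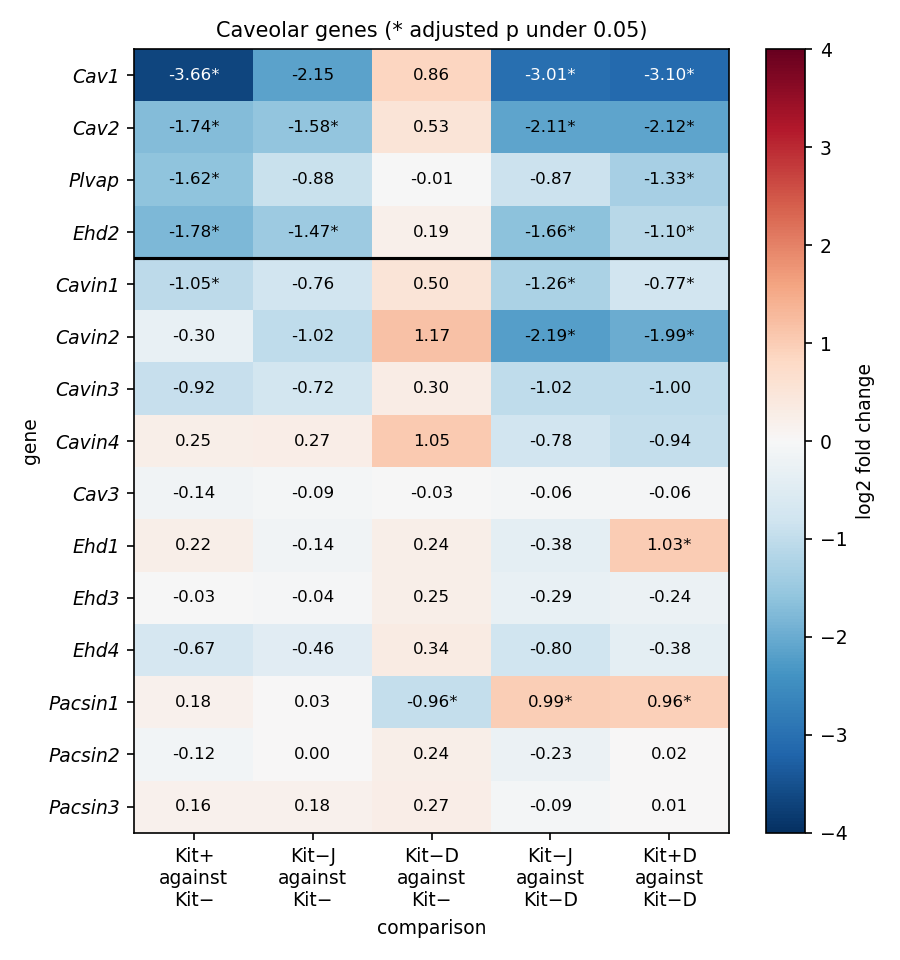
Log2 fold change (colour and number) of the 4 members, above the line, and of 11 other caveolar coat and neck genes in 5 comparisons. Asterisks mark an adjusted p under 0.05. Cavin1 and Cavin2 are the genes below the line called lower in Kit−J against Kit−D, at −1.26 and −2.19.

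Among 12 measured genes for proteins placed in caveolae or bound by caveolin-1, 1 was lower in Kit+ and 1 in Kit−J than in fresh Kit− cells, with list medians of −0.44 and −0.48. Both were Kdr, the VEGF receptor (−4.89, adjusted p = 9.16e-07, and −3.95, adjusted p = 7.34e-05, limma). Over all genes 2.67% and 1.89% were called lower in these comparisons. Against Kit−D, Kit−J had 4 of the 12 lower, beside 6.07% of all genes. These were Kdr (−4.27), the fatty acid receptor Cd36 (−3.36), the kinase Fyn (−1.44) and the endothelial nitric oxide synthase Nos3 (−0.84). Kit+D had 6 lower than Kit−D, beside 6.62% of all genes. Kdr was the gene called in Kit+D against Kit+ (1.44 higher, adjusted p = 0.0491, limma), where 1.42% of all genes were called.

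Genes of other uptake routes and of the barrier endothelium were set beside the members. Of 15 clathrin coat, adaptor and dynamin genes none was called when Kit+, Kit−J or Kit−D was set against Kit− (medians −0.22, −0.26 and 0.27). Of all 19937 genes 644, 426 and 34 were called in these comparisons, so none of 15 lies near those shares. In Kit−J against Kit−D 3 were lower, beside 6.07% of all genes. They were the dynamin Dnm3 (−1.09), the coat nucleator Fcho2 (−1.61) and the adaptor subunit Ap2s1 (−1.27). In Kit+D against Kit+ 2 were higher, Ap2s1 (1.45) and the light chain Cltb (1.15), where 207 of 19937 genes were called higher. Of 6 flotillin and raft scaffold genes 1 was called in any of the 9 comparisons of groups. This was Stom, which fell in Kit+J relative to Kit+D (−1.32, adjusted p = 0.0388, limma), where 2.25% of all genes were called. Plvap is characteristic of vessels without a blood-brain barrier. Of 10 genes of barrier endothelium 1 was called in Kit+ against Kit−, the tight junction gene Cldn5 (−1.64, adjusted p = 0.0189, limma). The list's median was −0.18, and 2.67% of all genes were called lower. None of the 10 was called in Kit−J against Kit−. In Kit−J against Kit−D Cldn5 was called lower (−1.71, adjusted p = 0.0177), beside 6.07% of all genes. The amino acid transporter Slc7a5 was called higher there (1.26, adjusted p = 0.0137), where 658 of 19937 genes were. Cldn5 had the sign of Plvap in both comparisons with a Cldn5 call, but Plvap was not called in the second.

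The genes whose signals were most like those of each member over the 17 arrays are given by Pearson's r, as a description. For Cav1 they were Cald1 (0.981), Ccn1 (0.980), Slc9a3r2 (0.976), Sox11 (0.974) and Parva (0.971), whose r within groups was still 0.826 to 0.895. For Plvap they were Hspg2 (0.968), Col4a2 (0.955), Cdh5 (0.955), Ptprm (0.949) and Nr2f2 (0.949). For Ehd2 they were Bmp1 (0.937), Tspan18 (0.934), Flt1 (0.931), Tie1 (0.925) and Nid1 (0.922). For Cav2 they were Plxna4, Asah2, Dpysl3, Mmp2 and Arhgef10 (0.952 to 0.958), with 0.454 to 0.590 within groups. The order is not fixed by the data. By Spearman's rho 1 of the 5 genes stayed among the top 5 for Cav1, none for Cav2, 3 for Plvap and 2 for Ehd2.

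Members tracked marker lists to different degrees. Over the 17 arrays r with the mean of 12 endothelial markers was 0.942 for Plvap, 0.937 for Cav1, 0.905 for Cav2 and 0.881 for Ehd2. With the mean of 14 stromal markers it was 0.937 for Cav1 and 0.834 to 0.858 for the other members. After group means were removed, Cav1 had 0.756 with stromal and 0.563 with endothelial markers, and Plvap had 0.451 and 0.546. Cav2 had 0.408 and −0.043, and Ehd2 had 0.287 and 0.206. With mesothelial and epithelial markers r over the 17 arrays was −0.448 for Cav1, −0.567 for Plvap, −0.642 for Cav2 and −0.705 for Ehd2. After group means were removed it was 0.66, 0.24, −0.19 and −0.32 in the same order, with the sign reversed for Cav1 and Plvap. With haematopoietic markers r over the 17 arrays was −0.486, −0.364, −0.349 and −0.387 in that order. The values after group means were removed were −0.567, −0.584, −0.119 and −0.177. The stromal genes Mgp and Acta2 reached 10.5 and 9.92 on Kit−D replicate 3 and 9.75 and 9.38 on Kit+D replicate 3. Those arrays also had the highest Cav1 signals of their groups (9.78 and 7.33). Kit−D replicate 1 had the lowest stromal mean of its group, −0.388, and a Cav1 signal of 9.47, above every Kit− array. Other stromal genes went different ways. Col1a1 was 5.99 to 7.10 on all arrays, and Pdgfrb was highest on Kit−D replicate 3 (6.69). Pdgfra read 6.35 on that array, below every Kit− array (6.61 to 7.67). The part of stromal RNA in the Cav1 values was not tested.

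**Figure D4:**
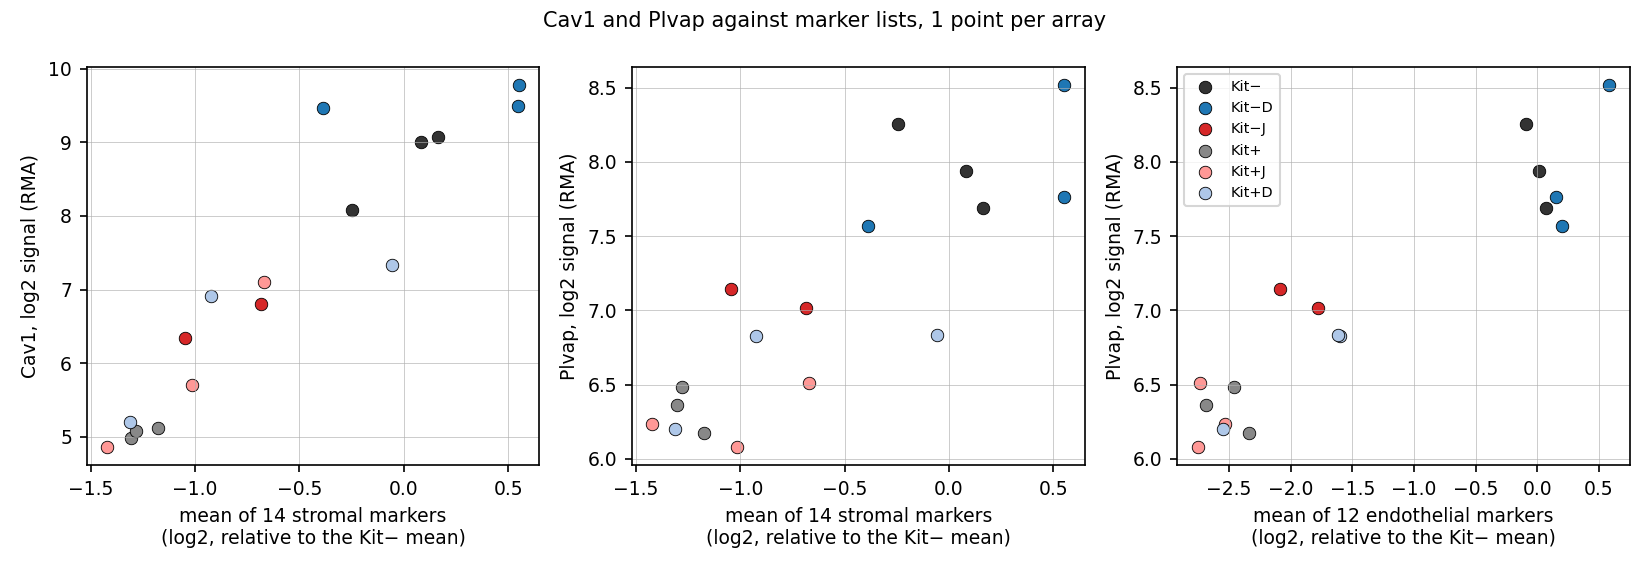
Log2 signal of Cav1 and Plvap (vertical axes) against the mean of 14 stromal or 12 endothelial markers relative to the Kit− mean (log2, horizontal axes), with 1 point per array. In Plvap signal and endothelial mean, Kit−J and 2 of the Kit+D arrays lie between the Kit− and Kit+ groups. The Kit−D arrays have the highest Cav1 signals, at stromal means of −0.388, 0.550 and 0.551.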

How the data were processed

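RNA of 17 samples was hybridised to Affymetrix Mouse Gene 1.0 ST arrays after whole-transcript amplification. The values are log2 signals that the authors deposited after RMA (its version is not given in the sources used here). They ran from 1.24 to 13.6. Raw intensities were not used. Of 34760 probe sets, 21640 had a single gene symbol in the platform annotation, 1321 had several and 11799 had none. Of the first, 21553 matched RefSeq by Entrez number. The brightest mean was taken for 954 genes with several probe sets, which left 19937 genes.

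Comparisons were contrasts in 1 group-means model over all arrays (limma 3.58.1, R 4.3.3), with moderated variance and Benjamini-Hochberg adjustment over all genes. Calls required an adjusted p under 0.05. The script was tested on simulated data. The number of arrays, 2 or 3 a group, limits the precision. Arrays are labelled biological replicates of embryo pools.

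The members, lists and comparisons were chosen with earlier results of these data known. Genes named are the 4 members, up to 4 members of a list with the smallest adjusted p, and the 5 genes most like each member by Pearson's r. Locus neighbours and those named as not called were added after their values were seen. Lists had coat and neck genes, caveolin partners, clathrin, flotillin and barrier genes, plus cell type markers. Alternatives were only the groups compared, a robust variance trend, no dim genes, housekeeping scaling, a second quantile normalization, array weights, mean or separate probe sets, a fold minimum of 1 log2 unit, fixed and random replicate blocks, and leaving out each array. Numbers of Kit−D and Kit+D arrays were taken to pair them, since the correlation of deviations of same-numbered arrays was 0.179 to 0.462 and at most 0.134 otherwise. Figures used Python 3.11.15 and matplotlib 3.10.9.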

Additional observations from a re-analysis of the deposited data

Results flagged for a closer look

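The Jag1-against-Dll4 contrast of Cav2 differed between Kit− and Kit+ cells when the difference itself was tested, by −2.17 log2 units (adjusted p = 0.0191, limma, with a range of 0.0152 to 0.0908 over the alternatives). In Kit− cells the contrast was −2.11, with both Kit−J arrays below all 3 Kit−D arrays, and in Kit+ cells the same contrast was 0.06 with overlapping arrays. The low groups of this contrast are dim. Groups of 2 or 3 arrays were too small to test single arrays as outliers.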

How the results depend on the processing

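No called value changed direction under any alternative, but several settings keep the fitted fold changes, so their direction could not change. These are only the groups compared, the robust variance trend, no dim genes and the fold minimum. Mean or separate probe sets also keep them, since each member has 1 probe set. Over settings that kept all groups, or left out several arrays, 13 of 588 member values lost a call and 7 gained one. With single arrays left out, 13 of 340 lost a call and 2 gained one. These totals count every member value, and only values called in the main fit could lose a call. They therefore understate how often a call was lost. In Kit−J against Kit− Cav2 was called in 13 of 16 alternative settings and Ehd2 in 10 of 17. In Kit+D against Kit−D Ehd2 was called in 12 of 20. The setting without dim genes drops Cav2, so its counts below cover the other members only. All 4 members stayed called in Kit+ against Kit− without each array in turn, and no member was called in Kit−D against Kit−, Kit+J against Kit+, Kit+J against Kit+D or Kit+J against Kit−J under any alternative run. For Kit−J against Kit− the number of members called was 1 without dim genes, 0 with array weights, 1 with the fixed replicate block (in place of 2, in a design where numbers pair the OP9-Dll4 arrays only), 4 without 3 OP9-Dll4 arrays, and 0 to 1 with single arrays left out (0 without Kit−J replicate 1). For Kit−J against Kit−D it was 1 to 4 with single arrays left out. For Kit+D against Kit+ it was 1 with array weights, and 0 to 1 with single arrays left out. For Kit+D against Kit−D it was 3 with only the groups compared, and 3 to 4 with single arrays left out. The setting without 3 OP9-Dll4 arrays leaves 1 Kit+D array, with Plvap at −0.84 and Ehd2 at −0.89 in that comparison. For the difference of the ligand effect it was 0 with only the groups compared, 0 without dim genes (Cav2 is then left out), 0 with array weights, 0 with cultured arrays alone, and 0 to 1 with single arrays left out. For the difference of the OP9-Jag1 culture effect it was 1 with only the groups compared and 1 without 3 OP9-Dll4 arrays. The causes were not tested. The settings without 3 OP9-Dll4 arrays, with cultured arrays alone and with OP9-Dll4 arrays alone were chosen after seeing the data. Apart from Ehd2 in Kit−J against Kit− (adjusted p = 0.0938) and in Kit+D against Kit−D, the fixed replicate block changed no call of a member. Same-numbered arrays did not deviate together in Kit− and Kit+ (0.00644 to 0.065) or in Kit−J and Kit+J (−0.263 to −0.114). Scaling on 7 housekeeping genes moved the median of all genes by 0.133 log2 units in Kit+D against Kit+, and the split of calls there from 207 higher and 76 lower to 286 higher and 13 lower. It moved the median by −0.103 and −0.128 in the differences of the OP9-Jag1 and OP9-Dll4 culture effects. The split went from 112 higher and 532 lower to 39 and 494 in Kit+ against Kit−, and from 658 and 1211 to 144 and 1123 in Kit−J against Kit−D. Without a detection value per probe set, signals near or under the array medians of 5.22 to 5.38 have limited precision. This holds for Cav2 in 4 groups, for Cav1 in Kit+, and for Ehd2 in Kit+, Kit−J and part of Kit+J.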
